A study of Mus musculus with 12 samples.

Results

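The 10 genes described here code for proteins that hold endothelial cells to each other or coat their surface, and they were taken by gene name from the count tables of glomerular endothelial cells (GEC). They are Cdh5, Pecam1, Esam, Jam2, Jam3, F11r, Cldn5, Ocln, Tjp1 and Emcn, 10 of the 15768 genes listed in both tables, one table for each sorted subpopulation. They were chosen by name and function and not by a threshold on values, though with earlier results of these data known, and all 10 were found. GEC were sorted from 4 month old C57BL/6 mice that carry a Tek-Cre driven tdTomato reporter, into a subpopulation with a weak signal (dimtdT) and one with a strong signal (brighttdT). The mice were wild type (WT) or Col4a5 -/- (AS), the latter a model of Alport syndrome, in which the collagen IV of the glomerular basement membrane is defective. RNA of 3 mice per genotype and subpopulation was sequenced, 12 libraries in all, and the dimtdT and brighttdT libraries of a mouse carry its number. The reporter is switched on for good in any cell that has ever had Tek-Cre activity, so that tdTomato marks a lineage and need not reflect current Tek expression. All groups carried Cre and reporter, and the cells passed an enzymatic digestion before the sort, which acts on surface proteins but is the same for all groups.

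In the glomerulus, a fenestrated endothelium lines the capillaries and is the first layer of the filter. Neighbouring endothelial cells are joined by adherens junctions, in which VE-cadherin (Cdh5) binds its like on the next cell and holds catenins inside, and by tight junctions of claudins, occludin and junctional adhesion molecules, which the scaffold ZO-1 (Tjp1) ties to actin. Pecam1 joins cells outside these complexes and is also found on platelets and leukocytes. Endomucin (Emcn) is a sialomucin of the endothelial coat. Ocln is best known from epithelia such as the renal tubule and from the blood-brain barrier.

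Counts on genes ranged from 11440169 to 15074909 per library. Levels are given as CPM, counts scaled to a library of M (mega) counts, on one scale for the 12 libraries. Tek, whose promoter drives the Cre that switches the reporter on, had 136 to 264 CPM in the WT-brighttdT and 241 to 256 in the AS-brighttdT libraries. In the dimtdT libraries it had 10.5 to 20.1 CPM in WT and 2.31 to 3.04 in AS. Col4a5, the mutated gene, had 37.8 to 74.6 CPM in the WT-dimtdT and 1.36 to 3.61 in the AS-dimtdT libraries, which did not overlap. In the brighttdT libraries it was low in both genotypes, 4.77 to 10.1 CPM in WT and 3.05 to 6.64 in AS, and there it did not separate the genotypes (adjusted p = 0.495 from the edgeR test described below).

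The marker lists of other cell types moved with the groups. The 10 endothelial markers (Kdr, Tek, Flt1, Ehd3, Egfl7, Nos3, Sox17, Erg, Clec14a and Mmrn2) summed to 5180 to 10109 CPM in the WT-brighttdT and 9335 to 11618 in the AS-brighttdT libraries, but to 379 to 830 in the WT-dimtdT and 137 to 200 in the AS-dimtdT libraries. The 12 leukocyte markers, Ptprc and Lyz2 among them, were higher in dimtdT than in brighttdT libraries and, within each subpopulation, higher in AS than in WT without overlap. They summed to 13.0 to 35.1 CPM in the WT-brighttdT and 41.2 to 63.7 in the AS-brighttdT libraries, whose table lists 7 of the 12 markers, to 3824 to 6017 in the WT-dimtdT and to 7988 to 10090 in the AS-dimtdT libraries. So in the dimtdT libraries, which are labelled as GEC, the leukocyte list took more counts than the endothelial list. The 10 proximal tubule markers summed to 1269 to 5912 CPM in the WT-dimtdT, 13.4 to 347 in the AS-dimtdT, 383 to 2407 in the WT-brighttdT and 46.5 to 433 in the AS-brighttdT libraries. Distal epithelium markers summed to 1244 to 2030 CPM in the WT-dimtdT and 56.0 to 348 in the AS-dimtdT libraries, and to 444 to 579 in the WT-brighttdT and 29.1 to 302 in the AS-brighttdT libraries. The 6 mesangial and mural markers, Pdgfrb and Acta2 among them, summed to 119 to 208 CPM in the WT-dimtdT, 59.1 to 105 in the AS-dimtdT, 401 to 881 in the WT-brighttdT and 434 to 790 in the AS-brighttdT libraries. The 5 podocyte markers summed to 432 to 947 CPM in the WT-dimtdT, 475 to 483 in the AS-dimtdT, 155 to 223 in the WT-brighttdT and 273 to 404 in the AS-brighttdT libraries. Platelet markers, 5 of 6 listed in each table, summed to 15.7 to 26.4 CPM in the dimtdT and 3.25 to 7.86 in the brighttdT libraries. No marker listed in a group's table was at 0 in all 3 libraries of that group. In these bulk samples, fewer endothelial cells and less RNA of a gene per endothelial cell cannot be told apart, and this holds for each result on the dimtdT libraries below.

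**Figure D1:**
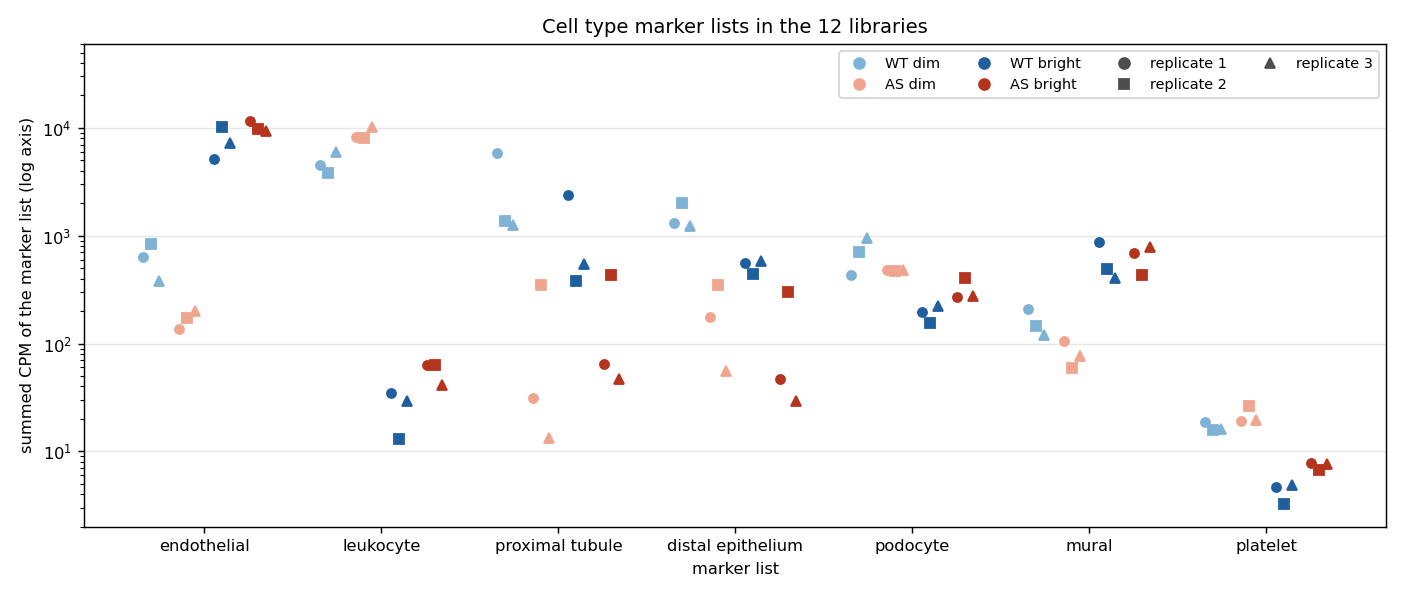
Summed CPM (log axis) of 7 cell type marker lists in each of the 12 libraries, coloured by group, with the symbol giving the replicate. The endothelial list is highest in the brighttdT libraries and the leukocyte list in the dimtdT libraries, where AS lies above WT. The proximal tubule list is lower in AS-dimtdT (13.4 to 347 CPM) than in WT-dimtdT (1269 to 5912 CPM).

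To compare the genes with each other, their CPM were divided by the length of their merged exons. In WT-brighttdT GEC, Emcn led with 756 ± 140 CPM per kb (SD, n = 3), above Esam with 294 ± 78.3, and the libraries of these neighbours did not overlap. Cdh5 followed with 162 ± 38.0 and Pecam1 with 125 ± 40.3 CPM per kb, and those libraries overlapped. Jam3 with 80.0 ± 13.9 CPM per kb overlapped Pecam1, whereas Tjp1 with 52.9 ± 7.28 lay below Jam3. F11r with 48.5 ± 11 CPM per kb overlapped Tjp1. Cldn5 with 23.3 ± 10.2, Jam2 with 4.21 ± 0.78 and Ocln with 0.42 ± 0.33 CPM per kb each lay below the gene before it in all libraries. The 10 genes thus spanned a ratio of 1792 from Emcn to Ocln in WT-brighttdT GEC.

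The order was nearly the same in AS-brighttdT GEC, from Emcn with 599 ± 34.1 to Ocln with 0.14 ± 0.11 CPM per kb (SD, n = 3). Cldn5, the eighth in WT, was the seventh there with 51.6 ± 19.1 CPM per kb, above Tjp1 with 44.1 ± 7.22, which it overlapped. In WT-dimtdT GEC, Emcn led again with 54.7 ± 11.2 CPM per kb, and Esam followed with 23.9 ± 6.20. The next 6 genes, Pecam1, Cldn5, Jam3, Tjp1, Cdh5 and F11r, lay between 13.5 and 6.85 CPM per kb, with libraries of each neighbour overlapping. Cdh5 was thus the third in WT-brighttdT and the seventh in WT-dimtdT GEC. Ocln with 1.56 ± 0.98 CPM per kb lay above Jam2 with 0.65 ± 0.42 in WT-dimtdT GEC, which overlapped. In AS-dimtdT GEC the first 8 genes, from Emcn with 7.49 ± 1.90 to Jam3 with 1.92 ± 0.89 CPM per kb, each overlapped the next.

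**Figure D2:**
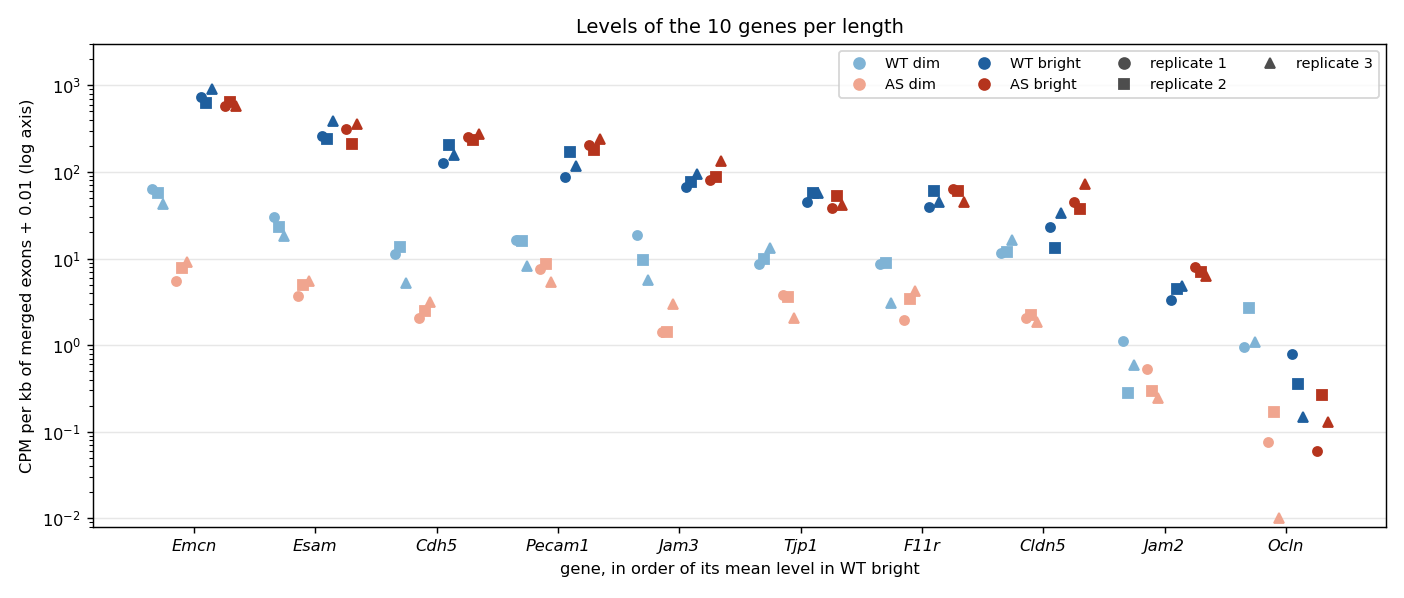
CPM per kb of merged exons (log axis, 0.01 added) of the 10 genes in each of the 12 libraries, coloured by group, with the symbol giving the replicate. Genes stand in the order of their mean in WT-brighttdT, from Emcn (756) to Ocln (0.42). The brighttdT libraries lie above the dimtdT libraries of both genotypes for all genes but Cldn5 and Ocln.

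RefSeq promoter sequences of GRCm38.p6 were at hand for 5 of the 10 genes: Cldn5, Emcn, F11r, Ocln and Tjp1. The 250 bases before the start are shown for 3 of them, because Emcn had the highest level and rose with the tdT signal, while Cldn5 and Ocln did not pass the test of brighttdT over dimtdT in WT. Capitals mark the core letters bound by ETS factors, GGAAG (or CTTCC on the other strand), a family to which the endothelial regulator Erg belongs, and the GC box GGGCGG (or CCGCCC). All 3 are written 5′ to 3′ in the direction of the gene.
Emcn, chr3:137340828-137341077, plus strand: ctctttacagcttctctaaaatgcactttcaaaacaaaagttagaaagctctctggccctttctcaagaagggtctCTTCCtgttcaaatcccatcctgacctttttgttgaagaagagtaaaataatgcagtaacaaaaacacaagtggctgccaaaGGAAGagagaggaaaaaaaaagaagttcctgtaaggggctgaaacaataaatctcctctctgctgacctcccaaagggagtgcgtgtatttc
Cldn5, chr16:18776597-18776846, plus strand: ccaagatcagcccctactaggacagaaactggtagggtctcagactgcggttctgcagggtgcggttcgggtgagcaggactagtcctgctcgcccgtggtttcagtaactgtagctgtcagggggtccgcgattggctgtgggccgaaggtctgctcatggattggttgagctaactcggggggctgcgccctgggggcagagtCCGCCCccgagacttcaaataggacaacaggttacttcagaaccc
Ocln, chr13:100552719-100552968, minus strand: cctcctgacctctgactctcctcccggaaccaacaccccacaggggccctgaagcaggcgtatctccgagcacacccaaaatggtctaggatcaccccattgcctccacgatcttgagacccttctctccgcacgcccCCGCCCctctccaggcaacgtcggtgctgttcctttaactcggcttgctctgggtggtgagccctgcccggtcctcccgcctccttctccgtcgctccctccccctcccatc

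The Emcn window held GGAAG in 2 places and no GC box. The Cldn5 window and this Ocln window, 1 of 2 listed for Ocln, held no GGAAG and 1 GC box each. The windows of F11r (1 GGAAG, 1 GC box) and Tjp1 (1 GGAAG, 2 GC boxes) held both. Of all 32851 promoter windows of this length, 64.1% held GGAAG and 32.7% the GC box on either strand. Matches of the motifs can overlap at their ends. A match is a run of letters and not a measured binding site.

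The first comparison asks how the genes differ between the subpopulations. In WT, 8 of the 10 genes were higher in brighttdT than in dimtdT GEC, where 13.8% of all genes tested were higher (edgeR's quasi-likelihood test, adjusted p under 0.05 after Benjamini-Hochberg adjustment over all genes). Cdh5, Emcn and Esam rose most, 17.2-fold, 14.8-fold and 13.2-fold, and only Cldn5 and Ocln did not pass. The brighttdT libraries lay above all dimtdT libraries for these 8 genes and below them for Ocln, as they did for 18.9% and 21% of all genes with at least 10 counts. In AS, 9 of the 9 genes tested were higher, against 28.6% of all genes, and Cdh5 rose 101-fold. None of the 9 overlapped there, against 29.1% of genes that lay higher in this way. The median log2 fold change of the genes tested was 2.92 in WT and 4.89 in AS, beside -0.04 and 0.02 over all genes tested. Of the endothelial markers, 10 of 10 were higher in each genotype, with medians of 3.67 and 6.19. The mesangial and mural markers were higher as well, 3 of 6 in WT and 6 of 6 in AS, with medians of 2.32 and 3.28, and their part in the genes' rise was not tested. Ocln had too few counts in AS to be tested.

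Cdh5 (chromosome 8, 104101625 to 104144511, plus strand of GRCm38, from Gencode M21 like the positions below) codes for VE-cadherin, the defining protein of the endothelial adherens junction. In the 3 WT-dimtdT libraries it had 47.6, 57.0 and 21.9 CPM, and in the 3 WT-brighttdT libraries of the same mice 532, 850 and 663 CPM. In AS it had 8.70, 10.3 and 13.1 CPM in the dimtdT and 1053, 973 and 1167 CPM in the brighttdT libraries. The brighttdT libraries lay above the dimtdT libraries in both genotypes, and AS had both the lowest and the highest values. The log2 fold change of brighttdT over dimtdT was 4.11 (SE 0.39, adjusted p = 0.000102 from edgeR) in WT and 6.66 (SE 0.23, adjusted p = 3.16e-08 from edgeR) in AS.

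Pecam1 (chromosome 11, 106654217 to 106750628, minus strand) codes for CD31, the most used endothelial surface marker. It had 101, 100 and 51.2 CPM in the WT-dimtdT and 550, 1047 and 738 CPM in the WT-brighttdT libraries. The AS libraries had 47.2, 53.4 and 33.4 CPM in the dimtdT and 1274, 1127 and 1513 CPM in the brighttdT libraries. Neither genotype had any overlap between the subpopulations, and the change was 9.86-fold in WT (log2 3.30, SE 0.36) and 29.6-fold in AS (log2 4.89, SE 0.24), with adjusted p = 0.000213 and 1.22e-07 from edgeR.

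Esam (chromosome 9, 37528078 to 37538319, plus strand), an endothelial adhesion molecule of the immunoglobulin family that sits at tight junctions and is also made by platelets, had 87.0, 66.8 and 51.5 CPM in the WT-dimtdT and 740, 688 and 1100 CPM in the WT-brighttdT libraries. Its values in AS were 10.5, 14.3 and 15.8 CPM in the dimtdT and 901, 600 and 1026 CPM in the brighttdT libraries. Here the brighttdT libraries of both genotypes overlapped each other, whereas the dimtdT libraries did not. The log2 fold change of brighttdT over dimtdT was 3.72 (SE 0.31) in WT and 5.99 (SE 0.29) in AS, with adjusted p = 4.67e-05 and 9.24e-08 from edgeR.

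Jam2, Jam3 and F11r code for JAM-B, JAM-C and JAM-A, junctional adhesion molecules that bind each other or their like across the cell border. Jam2 (chromosome 16, 84774123 to 84825928, plus strand) had 6.62, 1.64 and 3.49 CPM in the WT-dimtdT and 20.2, 27.2 and 29.1 CPM in the WT-brighttdT libraries. Its AS values were 3.18, 1.74 and 1.44 CPM in the dimtdT and 48.1, 42.7 and 38.4 CPM in the brighttdT libraries. The subpopulations did not overlap, and the dimtdT values rested on 18 to 74 counts. Jam2 rose 6.96-fold in WT (log2 2.80, SE 0.50, adjusted p = 0.00336 from edgeR) and 20.2-fold in AS (log2 4.34, SE 0.32, adjusted p = 1.63e-06 from edgeR).

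Jam3 (chromosome 9, 27097384 to 27155421, minus strand) had 59.7, 31.1 and 17.9 CPM in the WT-dimtdT and 217, 246 and 305 CPM in the WT-brighttdT libraries. In AS it had 4.53, 4.48 and 9.42 CPM in the dimtdT and 256, 278 and 424 CPM in the brighttdT libraries. Alone among the 10 genes, its exons overlap those of another annotated gene, the antisense Gm48796, and since the strand used for counting is not named, reads of the pair cannot be told apart. The log2 fold change was 2.92 (SE 0.41, adjusted p = 0.000872 from edgeR) in WT and 5.72 (SE 0.34, adjusted p = 4.20e-07 from edgeR) in AS, with no overlap in either.

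F11r (chromosome 1, 171437535 to 171464603, plus strand), whose protein also occurs in epithelia, platelets and leukocytes, had 23.3, 23.3 and 8.08 CPM in the WT-dimtdT and 106, 162 and 120 CPM in the WT-brighttdT libraries. In AS the values were 5.24, 9.13 and 11.2 CPM in the dimtdT and 168, 160 and 119 CPM in the brighttdT libraries. The dimtdT libraries of the genotypes overlapped, as did the brighttdT libraries. F11r rose 7.57-fold in WT (log2 2.92, SE 0.41, adjusted p = 0.000888 from edgeR) and 18-fold in AS (log2 4.17, SE 0.29, adjusted p = 1.22e-06 from edgeR).

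The tight junction genes differed from each other. Cldn5 (chromosome 16, 18776847 to 18778262, plus strand), the claudin that seals endothelial tight junctions, had 16.3, 17.1 and 23.1 CPM in the WT-dimtdT and 32.4, 18.7 and 47.7 CPM in the WT-brighttdT libraries. These groups overlapped, since the lowest brighttdT library lay below the highest dimtdT library, and the log2 fold change of 0.90 (95% interval -0.02 to 1.82) did not pass the test (adjusted p = 0.142 from edgeR). In AS, Cldn5 had 2.90, 3.15 and 2.63 CPM in the dimtdT and 63.0, 52.5 and 104 CPM in the brighttdT libraries. It rose there 25.5-fold (log2 4.67, SE 0.34, adjusted p = 1.48e-06 from edgeR), with no overlap.

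Tjp1 (chromosome 7, 65296165 to 65527781, minus strand), the ZO-1 scaffold, had 67.8, 77.7 and 104 CPM in the WT-dimtdT and 348, 450 and 442 CPM in the WT-brighttdT libraries. In AS it had 29.8, 28.1 and 15.8 CPM in the dimtdT and 302, 408 and 322 CPM in the brighttdT libraries. Of the genes that rose it changed least, 5.26-fold in WT (log2 2.40, SE 0.26, adjusted p = 0.000234 from edgeR) and 14.2-fold in AS (log2 3.83, SE 0.27, adjusted p = 1.22e-06 from edgeR), with no overlap in either.

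Ocln (chromosome 13, 100496507 to 100552718, minus strand) had 3.94, 11.4 and 4.51 CPM in the WT-dimtdT and 3.31, 1.45 and 0.58 CPM in the WT-brighttdT libraries. It was the one gene whose WT-brighttdT libraries all lay below the WT-dimtdT libraries, with 9 to 52 counts against 44 to 132, but its log2 fold change of -1.79 (SE 0.71) did not pass (adjusted p = 0.0973 from edgeR). In AS it had 4, 8 and 0 counts in the dimtdT and 3, 17 and 7 counts in the brighttdT libraries, which is 0 to 1.09 CPM. A fit without the filter on low counts gave a log2 fold change of 1.01 (SE 0.90, adjusted p = 0.383 from edgeR) for AS, so that no difference was detectable at this depth.

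Emcn (chromosome 3, 137341067 to 137432185, plus strand), the surface sialomucin, had 347, 313 and 229 CPM in the WT-dimtdT and 3960, 3403 and 4900 CPM in the WT-brighttdT libraries. The AS mice had 29.4, 42.3 and 49.8 CPM in the dimtdT and 3160, 3450 and 3107 CPM in the brighttdT libraries. The subpopulations were far apart in both genotypes, with a log2 fold change of 3.88 (SE 0.29, adjusted p = 2.59e-05 from edgeR) in WT and 6.35 (SE 0.27, adjusted p = 4.84e-08 from edgeR) in AS.

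**Figure D3:**
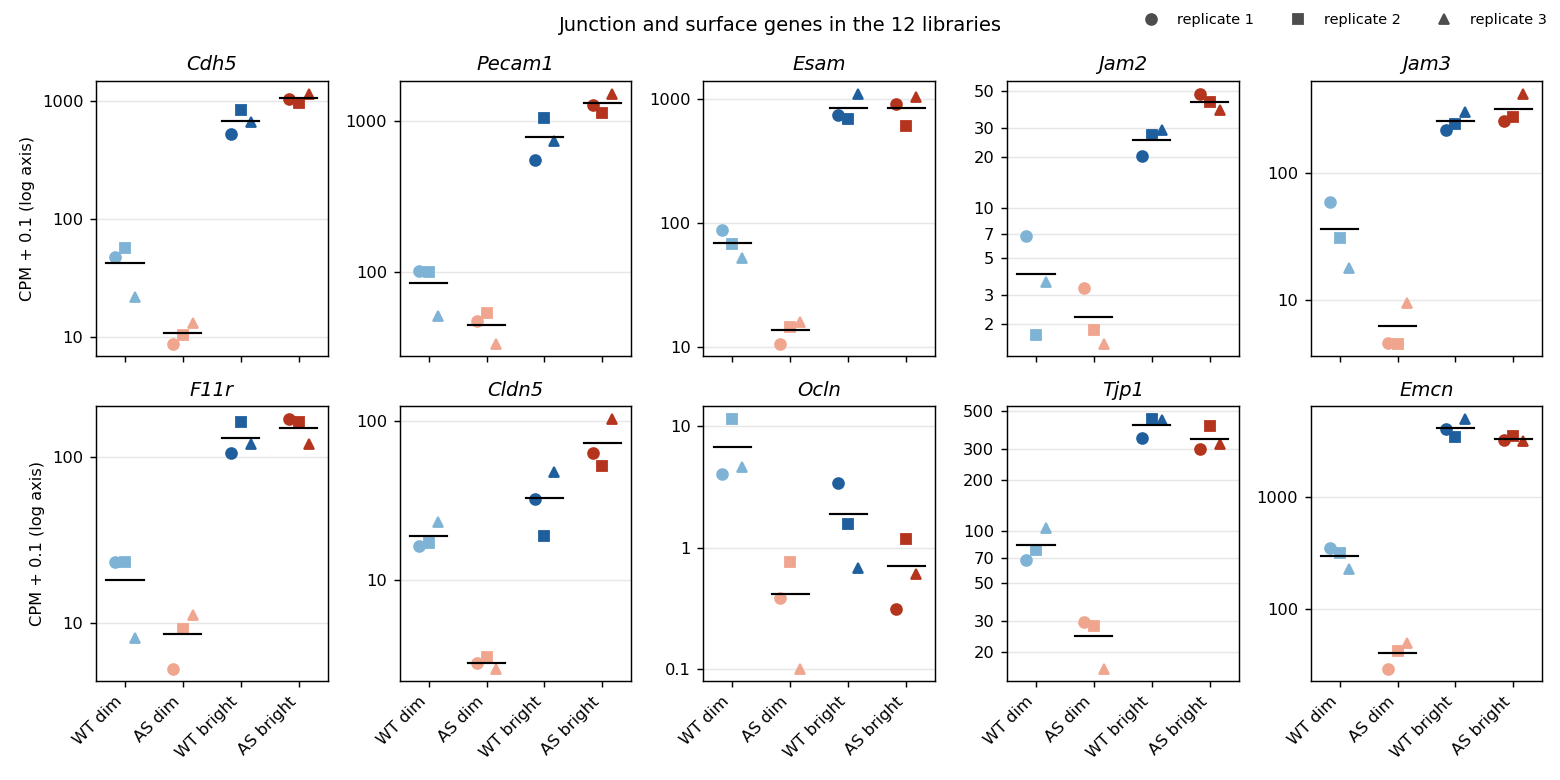
CPM (log axis, 0.1 added) of each of the 10 genes in the 12 libraries, by group, with the symbol giving the replicate and the line the group mean. In AS the brighttdT libraries lie above the dimtdT libraries for all genes but Ocln. In WT, Cldn5 overlaps and Ocln has the opposite order.

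The second comparison asks how the genes differ between AS and WT within each sorted subpopulation. In the dimtdT GEC, 7 of the 10 genes were lower in AS than in WT, against 6.42% of all genes tested, and all 10 had a negative log2 fold change (median -2.18, beside -0.02 over all genes tested). The 7 were Ocln, which fell 20.8-fold on 0 to 8 counts per AS library, Emcn (7.38-fold), Cldn5 (6.54-fold), Jam3 (5.96-fold), Esam (5.12-fold), Cdh5 (3.98-fold) and Tjp1 (3.41-fold). The endothelial markers were lower too, 7 of 10, with a median log2 fold change of -2.31. So were 5 of the 10 proximal tubule and 6 of the 8 distal epithelium markers tested, with medians of -4.20 and -2.90. Of the 5 podocyte markers 2 were lower and 1 higher (median -1.70), and of the 5 mesangial and mural markers tested 0 passed (median -1.01). In contrast, 3 of the 12 leukocyte markers were higher, against 2.21% of all genes, and 9 did not pass. The part of these other cell types in the genes' lower level was not tested, and the covariate fit given below cannot separate it from genotype.

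For Emcn, the fit gave a log2 fold change of -2.88 (SE 0.27, adjusted p = 0.00982 from edgeR), from 296 ± 60.7 to 40.5 ± 10.3 CPM (SD, n = 3). The WT and AS libraries did not overlap for any of the 7 genes that fell, while 15.1% of all genes with at least 10 counts lay lower in AS in this way. Cldn5 went from 18.8 ± 3.75 to 2.90 ± 0.26 CPM (SD, n = 3; log2 -2.71, SE 0.38, adjusted p = 0.0179 from edgeR), and its AS libraries were the most even of all 10 genes in that group. Jam3 had -2.58 (SE 0.54) and Esam -2.36 (SE 0.30) on the log2 scale, with adjusted p = 0.0296 and 0.0169 from edgeR. Cdh5 had -1.99 (SE 0.41) and Tjp1 -1.77 (SE 0.31), with adjusted p = 0.0282 and 0.0217 from edgeR.

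Ocln went from 6.61 ± 4.14 to 0.32 ± 0.33 CPM (SD, n = 3), a log2 fold change of -4.38 (SE 0.85, adjusted p = 0.0215 from edgeR) that rests on 44 to 132 counts in WT and 0 to 8 in AS. It was -5.42 without the AS-dimtdT library of replicate 2 (adjusted p = 0.0547 from edgeR) and -3.78 without the WT-dimtdT library of replicate 2 (adjusted p = 0.0403 from edgeR). The 3 genes that did not pass were F11r (log2 -1.12, 95% interval -2.26 to 0.03), Pecam1 (-0.93, -1.66 to -0.19) and Jam2 (-0.86, -2.31 to 0.58), with adjusted p = 0.2, 0.11 and 0.434 from edgeR. Their WT and AS libraries overlapped. F11r and Pecam1 are also genes of leukocytes, whose marker sum was higher in the AS-dimtdT libraries, and its part in these values was not tested.

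These calls in the dimtdT GEC hung on single libraries. Without the AS-dimtdT library of replicate 1, no gene of the 10 passed and none of all genes did, and without that of replicate 3 none of the 10 and 1 of all genes did. Emcn then had a log2 fold change of -2.72 or -3.05 (adjusted p = 0.0599 and 0.0968 from edgeR), and Jam3 one of -2.41 or -3.01. Without the AS-dimtdT library of replicate 2, 4 genes passed. With the proximal tubule marker level as a covariate, 0 of the 10 and 1 of all genes passed, and the log2 fold change was -2.61 for Emcn, -1.57 for Jam3, -5.53 for Ocln and -0.16 for Pecam1. The sums of these markers did not overlap between genotypes, 1269 to 5912 CPM in WT-dimtdT and 13.4 to 347 in AS-dimtdT. This fit thus cannot tell the covariate and genotype apart.

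In the brighttdT GEC, 0 of the 10 genes passed the quasi-likelihood test of AS over WT, where 0.452% of all genes did. At an unadjusted p under 0.05 there were 4 genes, all higher in AS, while 21.8% of all genes tested fell under it. DESeq2 called 1 gene, Cldn5 (adjusted p = 0.0493), and edgeR's likelihood ratio test and its version 3 fit called none. The median log2 fold change of the 10 genes was 0.21, beside -0.03 over all genes tested. None of the endothelial, proximal tubule and distal epithelium markers passed, 10 tested of each, and their medians were 0.32, -2.59 and -2.10. Nor did the 5 podocyte, 6 mesangial and mural and 3 leukocyte markers tested, with medians of 0.95, 0.04 and 0.58. The part of these cell types in the genes' values was not tested.

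The 4 genes were Cldn5, Jam2, Pecam1 and Cdh5, and the WT and AS libraries of each did not overlap, with AS above WT, as for 14.3% of all genes with at least 10 counts. Cldn5 went from 32.9 ± 14.5 to 73.1 ± 27.1 CPM (SD, n = 3; log2 1.08, 95% interval 0.29 to 1.88, adjusted p = 0.132 from edgeR). Jam2 went from 25.5 ± 4.69 to 43.1 ± 4.87 CPM (log2 0.70, 0.16 to 1.25), Pecam1 from 778 ± 251 to 1305 ± 195 CPM (log2 0.69, 0.13 to 1.25) and Cdh5 from 682 ± 160 to 1065 ± 97.4 CPM (log2 0.59, 0.10 to 1.07). Their adjusted p were 0.144, 0.158 and 0.163 from edgeR. The other 6 genes overlapped between the genotypes, with log2 fold changes from -1.59 (Ocln, 95% interval -3.28 to 0.10) to 0.26 (Jam3, -0.27 to 0.78). The value of Ocln was -0.06 with the proximal tubule covariate, -0.74 without the WT-brighttdT library of replicate 1 and -2.36 without the AS-brighttdT library of replicate 2. The intervals of Esam (-0.65 to 0.52), F11r (-0.36 to 0.67), Tjp1 (-0.78 to 0.14) and Emcn (-0.92 to 0.13) span 0.

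The effects of genotype in the subpopulations were set against each other in one fit of all 12 libraries. The AS over WT effect was higher in brighttdT than in dimtdT for 7 of the 10 genes, against 3% of all genes tested. All 10 differences were above 0, with a median of 2.44 on the log2 scale beside 0.14 over all genes tested. Cldn5 had the largest, 3.85 (SE 0.55, adjusted p = 0.00397 from edgeR), from a log2 fold change of -2.71 in dimtdT and one of 1.08, which did not pass, in brighttdT GEC. Jam3 had 2.88 (SE 0.57, adjusted p = 0.0141), Cdh5 2.62 (SE 0.44, adjusted p = 0.00607), Emcn 2.53 (SE 0.33, adjusted p = 0.00314) and Esam 2.34 (SE 0.40, adjusted p = 0.00654), all from edgeR. Pecam1 with 1.66 and Tjp1 with 1.5 passed by a small margin (adjusted p = 0.0456 and 0.035 from edgeR), and these calls were lost in 14 and 13 of 19 alternatives. Without the AS-dimtdT library of replicate 1, 4 of the 10 genes passed. F11r (1.31), Jam2 (1.61) and Ocln (2.84, SE 1.37) did not pass, with adjusted p = 0.192, 0.169 and 0.278 from edgeR. The endothelial markers had a difference above 0 in 10 of 10 and passed in 7 of 10, with a median of 2.67. So did 4 of 5 podocyte markers, with a median of 2.74, and 1 of 10 proximal tubule markers, with a median of 1.71, and the part of these cell types in the genes' differences was not tested. This difference and the comparisons before it share libraries, so that their values for a gene are not independent.

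To show how the genes stand to other endothelial RNA, each was divided by the summed CPM of the 10 endothelial markers of the same library. The ratio was chosen after the values had been seen and is given without a test. Ehd3, Kdr and Flt1 led this sum, with means of 274, 147 and 81.4 CPM in WT-dimtdT and 77.6, 21.9 and 49.5 in AS-dimtdT libraries. The fitted falls of the markers in AS-dimtdT ran from 1.66-fold (Flt1) to 9.53-fold (Sox17), so the ratio depends on the markers with most counts. In these terms Cdh5 had 58 to 74 CPM per 1000 marker CPM in the WT-dimtdT and 59 to 65 in the AS-dimtdT libraries, which overlapped. In the brighttdT libraries it had 84 to 103 in WT and 91 to 125 in AS. Esam was nearly level between the subpopulations, with a mean of 117 and 121 in WT-dimtdT and WT-brighttdT and 79.3 and 82.8 in AS-dimtdT and AS-brighttdT. Emcn, in contrast, stayed lower in AS relative to this sum, with 377 to 604 in WT-dimtdT and 215 to 249 in AS-dimtdT libraries, which did not overlap. Its fall of 7.38-fold in CPM stood beside 6.79-fold for Kdr and 3.55-fold for Ehd3. The brighttdT libraries had 337 to 764 for Emcn in WT and 272 to 351 in AS, with overlap.

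Ocln also stayed lower in AS-dimtdT GEC, with 6.14 to 13.7 CPM per 1000 marker CPM in WT and 0 to 3.83 in AS. Pecam1 and F11r had the opposite order. Pecam1 had 121 to 158 in the WT-dimtdT and 167 to 345 in the AS-dimtdT libraries, and F11r had 21.3 to 36.3 and 38.3 to 55.8, neither with overlap. Of the 7 genes without overlap in CPM between the genotypes in dimtdT GEC, only Emcn and Ocln thus also had no overlap in the ratio, both lower in AS, as were 1.79% of all genes with at least 10 counts. Pecam1 and F11r, which overlapped in CPM, were higher in the ratio, as were 64.1% of all genes. The marker sum itself was lower in the AS-dimtdT libraries. Between the subpopulations of WT mice, 5 of the 10 genes (Pecam1, Cldn5, F11r, Tjp1 and Ocln) were lower in brighttdT relative to the markers without overlap, where 85.8% of all genes were, and Cdh5 was higher, with 0.273% of all genes. In AS, 5 were lower (Pecam1, Cldn5, Jam2, F11r and Tjp1), against 92% of all genes, and 2 higher (Cdh5 and Emcn), against 0.599%. In brighttdT GEC, Pecam1 and Jam2 were higher in AS, as were 3.7% of all genes, and Tjp1 was lower, as were 18.1%, with 44.5 to 67.1 in WT and 26.0 to 41.5 in AS.

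**Figure D4:**
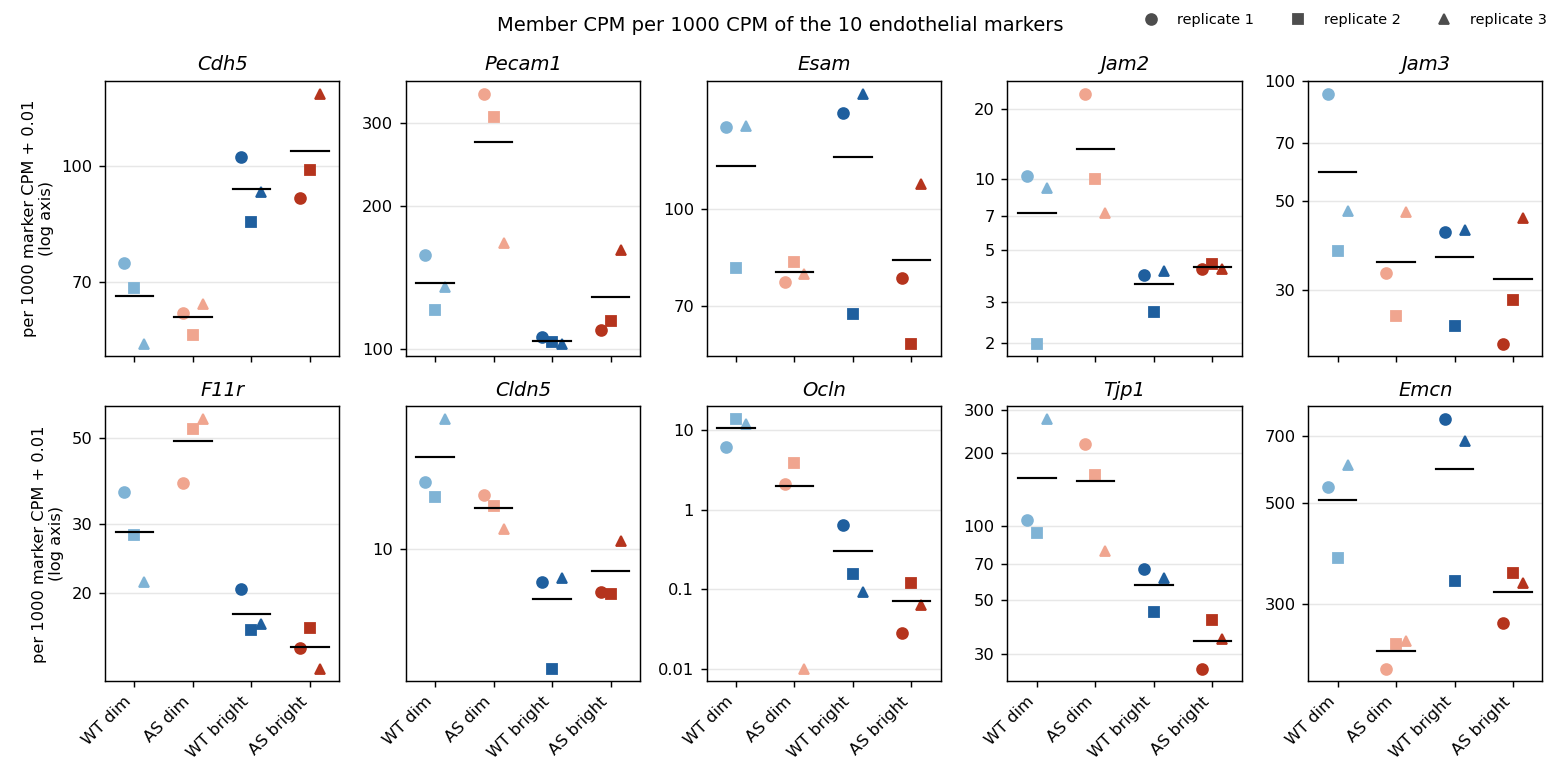
CPM of each gene per 1000 CPM of the 10 endothelial markers in the same library (log axis, 0.01 added), by group, with the symbol giving the replicate and the line the group mean. Cdh5 is higher in brighttdT in both genotypes. Pecam1 and F11r are higher and Emcn and Ocln lower in AS-dimtdT than in WT-dimtdT, each without overlap.

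Partners of these proteins were counted from lists. Of the 13 tested of 14 adherens junction partners, 10 were higher and 1 lower in brighttdT than in dimtdT GEC in each genotype, where 13.8% of all genes were higher and 11.5% lower in WT, and 28.6% and 26.5% in AS. These shares hold for the lists below as well. The phosphatase Ptprb (VE-PTP), which binds VE-cadherin, had a mean of 2013 CPM in WT-brighttdT and 171 CPM in WT-dimtdT libraries, a log2 fold change of 3.65 (adjusted p = 0.000108 from edgeR). Ptprm (4.09), Cdh13 (3.23) and Nectin2 (2.68) passed as well in WT. In AS over WT, 3 of the 13 were lower in dimtdT GEC, where 6.42% of all genes were, namely Nectin3 (-3.63), Ptprb (-2.96) and Jup, the gene of plakoglobin (-0.94), and none passed in brighttdT GEC, where 8 had a positive and 5 a negative log2 fold change.

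Tight junction partners, scaffold and polarity proteins, were mixed. Of 17 tested in WT, 5 were higher and 2 lower in brighttdT GEC, and in AS 7 of 16 were higher and 3 lower. The lower ones are thus near the share among all genes in WT (11.5%) and below it in AS (26.5%). The scaffold genes Magi1 (log2 2.87 in WT, 5.81 in AS) and Mpdz (2.25, 4.88) rose and Patj (-2.83, -5.27) fell. In dimtdT GEC, Magi1 (-3.09), Mpdz (-2.86) and Cgnl1, which codes for paracingulin (-2.54), were lower in AS, 3 of 16 tested, against 6.42% of all genes. Among the other claudins, 9 of 17 could be tested in WT and 1 passed, Cldn15, which rose with a log2 fold change of 3.44 from a mean of 8.34 to 84.4 CPM. In AS, Cldn15 (5.17) and Cldn12 (3.35) passed, 2 of 7, which is the share among all genes (28.6%). In dimtdT GEC, 2 of the 9 claudins tested were lower in AS, against 6.42% of all genes, namely Cldn8 (-3.61) and Cldn19 (-2.76), known from tubule segments. The other 7 did not pass, among them Cldn4, the single one with a positive log2 fold change (1.02).

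All 4 connexins of endothelium and vessel wall, the gap junction genes Gja1, Gja4, Gja5 and Gjc1, were higher in brighttdT GEC in both genotypes. Of the 4, Gja4 (-3.29) was lower in AS-dimtdT than in WT-dimtdT GEC, against 6.42% of all genes. The other 3 did not pass, among them Gja5 with a positive log2 fold change (0.64). Of the other endothelial surface genes, 11 of 13 were higher in brighttdT in WT and 12 of 13 in AS, against 13.8% and 28.6% of all genes, among them Robo4 (log2 3.85 in WT), Tie1 (3.72), Eng (3.58) and Plvap (3.14). In AS over WT, 3 of the 11 tested were lower in dimtdT GEC, against 6.42% of all genes, namely Eng (-2.21), Podxl, the gene of podocalyxin (-1.93), and Icam2 (-1.41). The other 8 did not pass, and of these Cd93 (0.63, adjusted p = 0.131 from edgeR) and Thbd (0.39, adjusted p = 0.179 from edgeR) had a positive log2 fold change. In brighttdT GEC the single gene of all these lists that passed was Cd34, a sialomucin like Emcn, which was higher in AS with a log2 fold change of 1.18 (adjusted p = 0.0413 from edgeR), where 0.188% of all genes were higher.

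The genes whose log2 CPM were most like those of Cdh5 over the 12 libraries were Plpp3, Cx3cl1, Igfbp5, Rapgef5 and Ephb4, with Pearson's r of 0.996 to 0.998. Since the libraries form a dimtdT and a brighttdT set, r was also taken within each, and was 0.936 to 0.994 over the 6 brighttdT and 0.965 to 0.993 over the 6 dimtdT libraries. For Ocln the most alike were Gpx6, Myo5b, Lgr4, Egf and Col4a4, with r of 0.94 to 0.96 over the 12 libraries, 0.772 to 0.968 over the 6 brighttdT and 0.971 to 0.988 over the 6 dimtdT libraries. Egf is known from the distal tubule. These are descriptions over libraries that share mice and groups, and the genes were picked for their r among 15084.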

How the data were processed

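The authors sorted GEC, sequenced poly-A RNA and, per the submitters' processing notes, used FastQC 0.11.5, cutadapt, Trimmomatic, STAR 2.6.0c and edgeR on GRCm38.p5. The deposited counts are STAR's reads per gene, not normalized, in one table of 17811 (dimtdT) and one of 17521 (brighttdT) genes, with 92 ERCC spike-ins each, which were left out here. The strand used for counting is not given in the sources used here. The authors' RPKM were deposited beside the counts and were used only to check gene lengths. Their length column equals the exon lengths summed over all transcripts plus the number of exons in 98.3% of 13300 genes. These are the genes with more than 1 exon record and the same number of records in Gencode M21. Their median length was 1.81 times the merged exon length, so that genes with many transcripts are understated (Pecam1 3.19 times). Cldn5, with 1 exon record, had 1.00 times. Levels were therefore recomputed per kb of merged Gencode M21 exons. The deposited log2 fold changes and logCPM, likelihood ratio score, p-values and FDR are the authors' comparisons and were not used.

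Counts were tested with edgeR 4.0.16 in R 4.3.3 (TMM, filterByExpr, quasi-likelihood test, Benjamini-Hochberg adjustment over all genes, threshold 0.05), 6 libraries per comparison and 12 for the difference of effects. CPM were scaled by TMM over the 12 libraries. The SE is that of the log2 fold change. Library pairs of a group differed by far more than sampling noise (chi-square over degrees of freedom of 29.5 to 104). The dimtdT and brighttdT libraries of a mouse share its number in the labels, and their deviations from the group means correlated by 0.197 on average in WT and 0.213 in AS, against -0.0984 and -0.105 for other mice. The members and gene lists were chosen with earlier results of these data known. Named were the 10 genes, Tek and Col4a5, per list and comparison up to 4 genes that passed with the largest change, the list genes with the highest level, and the 5 genes most like Cdh5 and Ocln. The ratios to endothelial markers were chosen once the values were known. The alternatives tried were DESeq2 1.42.0, RLE normalization, unscaled library sizes, the likelihood ratio test, no filter, a replicate block, a proximal tubule covariate, all libraries in one fit, each library left out and, added after seeing the data, edgeR's version 3 fit. The tests were tried on simulated data.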

Additional observations from a re-analysis of the deposited data

Results flagged for a closer look

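For 7 genes the effect of AS over WT differed between the subpopulations by the interaction test in the fit of all 12 libraries (adjusted p under 0.05 in edgeR's quasi-likelihood test). On the log2 scale, brighttdT minus dimtdT, the differences were 3.85 for Cldn5, 2.88 for Jam3, 2.62 for Cdh5, 2.53 for Emcn, 2.34 for Esam, 1.66 for Pecam1 and 1.5 for Tjp1. Those of Cldn5, Cdh5, Emcn and Esam passed in each of 19 alternatives and that of Jam3 in 18. Pecam1 passed in 5 and Tjp1 in 6 of 19. Cldn5 had opposite signs in the fits by subpopulation, -2.71 in dimtdT and 1.08 in brighttdT GEC, of which only the first passed. The endothelial marker sum of the dimtdT libraries, 379 to 830 CPM in WT and 137 to 200 CPM in AS, moved with these differences. Of the podocyte markers, 4 of 5 also passed the same test, with a median difference of 2.74, beside 7 of 10 endothelial markers with 2.67. Their part in the differences was not tested.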

How the results depend on the processing

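Over 756 values of the genes under the alternatives, 686 kept direction and side of the threshold, 60 lost and 5 gained a call and 5 changed sign. BrighttdT over dimtdT called 8 or 9 of the 10 genes in WT and 9 in AS under every alternative, of 9 tested or, without the filter and in the 12-library fit, of 10. Ocln was added as lower in WT by the likelihood ratio test and the 12-library fit (adjusted p = 0.0419 and 0.0229). AS over WT in brighttdT gave 0 except with DESeq2, which called 1. In dimtdT, 7 genes were called, 0 with the proximal tubule covariate and 0 to 8 when one library was left out. The cause was not tested. The difference of effects called 4 to 7 of 10 when one library was left out, 4 without the AS-dimtdT library of replicate 1, and all other alternatives gave 5 to 7.

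With the replicate block, AS over WT in dimtdT called 4 genes (Cldn5, Esam, Ocln and Emcn) instead of 7 and 494 instead of 1263 of all genes. WT and AS mice share only a number there, with mean correlations of -0.0504 in dimtdT and -0.0362 in brighttdT. Within mice, the block changed no call of brighttdT over dimtdT or of the difference. Over all genes, AS over WT in brighttdT called 65, but 0 under the covariate and the version 3 fit, 16 with the block, 39 without the filter, 140 in the 12-library fit, 897 with the likelihood ratio test, 1117 with DESeq2 and 0 to 281 with one library left out. In dimtdT it called 1263, but 1 under the covariate, 582 with the version 3 fit, 2143 in the 12-library fit, 2213 with DESeq2 and 0 to 1825 with one library left out. The difference called 576, but 882 with the block, 1095 with the likelihood ratio test, 1186 with DESeq2 and 254 to 890 with one library left out.

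None of the sign changes was of a called value. They were, for AS over WT in brighttdT, Jam3 with -0.0055 under the proximal tubule covariate and -0.0081 to 0.38 when one library was left out, and Esam with -0.24 to 0.15 when one was left out (below 0 in the reported fit, 0.14 without AS replicate 2 and 0.15 without WT replicate 3). In dimtdT it was Jam2 with 0.23 under the covariate. Depth limits Ocln, with 0 to 17 counts per AS library, and Jam2 in dimtdT.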
